A study of Mus musculus with 4 samples.

Results

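The coreceptor genes Cd4, Cd8a and Cd8b1 were described here, cell class by cell class, in thymocytes of a WT mouse and of an Eif4g2 conditional knockout (Eif4g2 cKO, or cKO) mouse. They were taken by symbol and are 3 of the 21926 genes in the count tables. CD4 is a single-chain coreceptor that binds MHC class II, and the CD8 coreceptor of thymocytes is a heterodimer of the α chain (Cd8a) and the β chain (Cd8b1) that binds MHC class I. Both carry the kinase Lck to the T cell receptor (TCR). Thymocytes begin without either coreceptor (double negative, DN), pass in mice through an immature stage in which CD8 appears first, express both (double positive, DP), and after selection keep one (single positive, SP). The factor ThPOK, encoded by Zbtb7b, maintains the CD4 fate, and Runx3 acts in the CD8 fate, where it takes part in silencing Cd4.

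The Eif4g2 cKO mouse carried Eif4g2 flox/flox with the CD4-Cre transgene, in which regulatory elements of Cd4 itself drive the recombinase, so that deletion is expected from the late DN and DP stages on. The WT control was an Eif4g2 flox/flox littermate without Cre, on the C57BL/6 background. Whole thymus was taken at 5 weeks of age, dissociated and loaded unsorted on a droplet device that counts the 3′ ends of transcripts as unique molecular identifiers (UMIs). Each genotype is 1 mouse and 1 library, so no difference between genotypes has a replicate check and no p-value was computed. The 95% intervals given in square brackets (Poisson for levels, binomial for shares and ratios, all exact) cover counting error only.

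The WT library held 6014 barcodes with 18355050 UMIs and a median of 1732.5 per cell, and the cKO library 4335 barcodes with 18056277 UMIs and a median of 2140. The WT mouse is labelled female, yet its library held 2542 UMIs of Y-linked genes against 1 in the cKO library, and this difference and the genotype cannot be told apart. Levels are given as CPM, the UMIs of a gene scaled by all UMIs of the cells concerned. Eif4g2 was counted at 223 CPM in the WT library and 274 CPM in the cKO library. It was thus no lower in the library labelled cKO. Whether these 3′ tags read the deleted part of the gene is not given in the sources used here, so the labels could not be checked by this gene, and cKO stands throughout for the library labelled so. The libraries share 1055 barcode names, which are running names given within each library. Doublets were not removed, and a cell holding UMIs of both coreceptors may be 2 cells. Haemoglobin UMIs, summed over 4 genes, reached 520 CPM in WT and 16.8 CPM in cKO DP-like cells, and what part free RNA has in any value was not tested.

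All 3 genes lie on chromosome 6 (GENCODE M21, GRCm38/mm10). Cd8b1 (ENSMUSG00000053044.8) runs from 71322788 to 71337494 and Cd8a (ENSMUSG00000053977.13) from 71373427 to 71379173, both on the plus strand and 35.9 kb apart. Cd4 (ENSMUSG00000023274.14) lies far from them at 124864692 to 124888221 on the minus strand. No annotated gene overlaps a member on either strand. The lincRNA Gm44174 lies upstream of Cd8a on the same strand and ends 142 bases before its start. The promoter of Cd8a is shown because Cd8a was the member with a RefSeq promoter entry and the one whose level can be set against its partner chain below. The letters are the 250 bases before its start, chr6:71373177-71373426 of GRCm38.p6 on the plus strand, in lower case with matches to the E-box CANNTG, the letters bound by E proteins such as Tcf3 and Tcf12, in capitals.
Cd8a promoter: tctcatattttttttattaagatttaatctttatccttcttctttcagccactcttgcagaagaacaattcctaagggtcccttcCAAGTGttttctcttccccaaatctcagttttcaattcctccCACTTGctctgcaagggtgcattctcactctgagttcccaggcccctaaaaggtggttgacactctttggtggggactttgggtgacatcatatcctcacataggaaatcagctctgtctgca
The matches begin at -165 (CAAGTG) and -123 (CACTTG), where -1 is the last base before the start. CANNTG reads the same class of letters on both strands and was found in 66.2% of 32851 mouse promoter windows, so its presence is common. The window held on neither strand the RUNX letters TGTGGT nor the variant TGCGGT, found in 18.6% of windows. It likewise lacked the GATA motif AGATAA (9.99% of windows), the ETS motif spelled CAGGAAG (10.8%) and the box TATAAA (12.4%). A match is a run of letters and not a site shown to be bound.

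Cells were clustered without Cd4, Cd8a and Cd8b1, so that the members did not shape the classes in which they are described, and classes were named from other markers. The DP-like class held 3374 WT and 2142 cKO cells, the early post-selection-like class 840 and 585, the mature SP-like class 583 and 198, and the DN-like class 105 and 129. Cluster 5, led by replication genes (294 and 631 cells), and cluster 3, led by mitotic genes (622 and 594 cells), were left unnamed. In the markers, the DP genes Rag1, Rag2, Arpp21, Aqp11 and Dntt summed to 5157 CPM in WT and 4043 CPM in cKO DP-like cells, and the mature genes Klf2, Ccr7, Ms4a4b, S1pr1, Ms4a6b and Il7r to 2070.2 and 1319 CPM in mature SP-like cells. These markers took part in naming the classes, so their sums are no check of the names. The mature genes stood lower in the cKO library.

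The 3 genes followed one course through the classes in both libraries, low in DN-like cells, highest in DP-like cells and lower again after selection. In WT cells Cd4 stood at 86.8 CPM [66.1, 112] in DN-like, 1304 [1273, 1335] in DP-like, 415 [386, 446] in early post-selection-like and 303 [281, 327] in mature SP-like cells. Cd8a stood at 112 [88.1, 140], 1352 [1321, 1383], 467 [436, 500] and 407 [381, 434] CPM in the same classes. Cd8b1 stood at 174 [144, 208], 3584 [3534, 3635], 923 [879, 968] and 829 [792, 868] CPM. The order of the classes was thus the same for the coreceptor of class II and for both chains of the coreceptor of class I, and no neighbouring pair in this order had overlapping intervals. In cKO cells Cd4 stood at 60.7 CPM [45.7, 79.0], 1506 [1466, 1547], 516 [479, 555] and 501 [452, 553] from the DN-like to the mature SP-like class. Cd8a stood at 105 [84.8, 128], 1677 [1635, 1719], 494 [458, 532] and 419 [374, 467] CPM, and Cd8b1 at 222 [192, 255], 4272 [4205, 4339], 1047 [994, 1103] and 765 [705, 829] CPM. Here the levels of Cd4 in the early and mature classes were close.

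**Figure D1:**
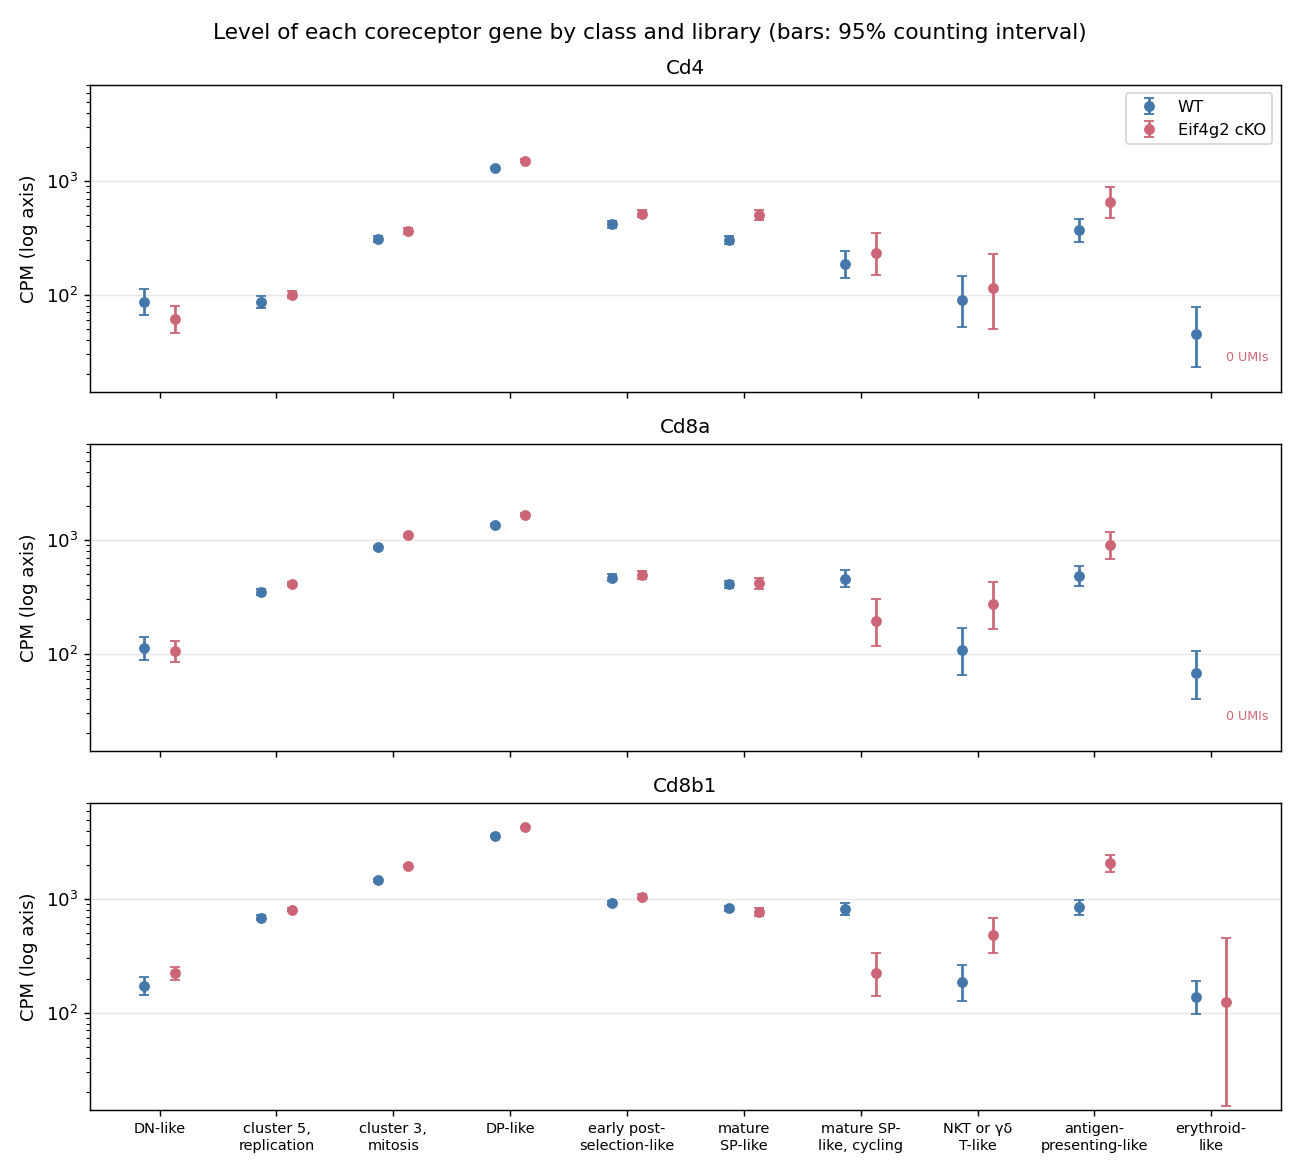
Level of Cd4, Cd8a and Cd8b1 (1 panel each) as CPM on a log axis in 10 classes of cells of the WT and the cKO library, with exact Poisson 95% intervals. All 3 genes peak in DP-like cells, at 1304, 1352 and 3584 CPM in WT and 1506, 1677 and 4272 CPM in cKO cells. The cKO erythroid-like class has 4 cells, and its missing points are 0 UMIs.

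The steps between classes within a library need no comparison of libraries. From DN-like to DP-like cells the log2 ratio of levels was 3.91 for Cd4, 3.60 for Cd8a and 4.37 for Cd8b1 in WT, and 4.63, 4.0 and 4.27 in cKO cells. From DP-like to early post-selection-like cells it was -1.65, -1.53 and -1.96 in WT and -1.55, -1.76 and -2.03 in cKO cells. Both steps had the same direction for each gene in both libraries. The next step was uneven. From early to mature cells Cd4 moved by -0.45 [-0.61, -0.30] in WT and by -0.04 [-0.22, 0.14] in cKO cells, whereas Cd8b1 moved by -0.15 [-0.25, -0.06] in WT and by -0.45 [-0.59, -0.31] in cKO cells. The step of Cd8a was -0.20 [-0.34, -0.06] and -0.24 [-0.43, -0.05].

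In clusters 5 and 3 Cd4 stood lower relative to Cd8 than in DP-like cells, and the place of these clusters among the stages was not tested. In cluster 5 Cd4 stood at 86.4 CPM in WT cells, while Cd8a stood at 346 and Cd8b1 at 688 CPM. In cluster 3 Cd4 stood at 308, Cd8a at 865 and Cd8b1 at 1463 CPM in WT cells, between cluster 5 and the DP-like class for each gene. The cKO values were 100.3, 409 and 806 CPM in cluster 5 and 363, 1105 and 1957 CPM in cluster 3. Beside DN-like cells, Cd4 in cluster 5 was about level in WT (86.8 CPM in DN-like) and higher in cKO cells (60.7 CPM in DN-like). With each cell thinned to 1000 UMIs, Cd4 was detected in 11.9% (WT) and 12.0% (cKO) of the cells of cluster 5, in 29.3% and 29.3% of cluster 3, and in 67.0% and 72.7% of DP-like cells. The corresponding shares for Cd8b1 were 55.8% and 56.7%, 75.2% and 81.3%, and 94.8% and 96.5%. Most cells of cluster 5 that held a coreceptor UMI at that depth therefore held Cd8 alone, at 57.5% of WT and 57.7% of cKO cells against 9.18% and 10.1% with both.

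Ratios between members cancel depth, and their change from class to class is read here rather than their size, since 3′ tags of different genes are not on 1 scale per length. Cd4 UMIs per Cd8 UMI (Cd8a and Cd8b1 together) stood at 0.0835 in WT and 0.0826 in cKO cells of cluster 5, 0.132 and 0.119 in cluster 3, 0.264 and 0.253 in DP-like cells, and 0.299 and 0.335 in early post-selection-like cells. In DN-like cells it was lower in the cKO library, at 0.304 [0.223, 0.409] in WT and 0.186 [0.137, 0.248] in cKO cells, with overlapping intervals. In mature SP-like cells it was higher in the cKO library and the intervals were apart, with 0.245 [0.225, 0.267] in WT and 0.423 [0.375, 0.477] in cKO cells. With the class taken from a marker score, which does not use clusters, the values were closer, at 0.231 and 0.275. Cd8a UMIs per Cd8b1 UMI ranged less, from 0.377 in DP-like to 0.644 in DN-like cells of WT and from 0.392 to 0.565 over the DP-like and DN-like classes and clusters 3 and 5 of cKO. A small class of cycling mature SP-like cells had 0.864 [0.442, 1.67] in cKO, from 19 Cd8a and 22 Cd8b1 UMIs. The mature SP-like class had 0.491 in WT and 0.547 in cKO cells. The ratio lay farthest from these in WT cells of cluster 8, an early post-selection-like cluster led by Tnfrsf9, Nr4a1 and Ikzf2, where it was 0.937 [0.673, 1.30] in WT and 0.735 [0.519, 1.04] in cKO cells. There Cd8b1 stood at 237 CPM in WT and 266 CPM in cKO cells, against 1076 and 1276 CPM in cluster 2, the other cluster of the class. The WT ratio in cluster 8 rests on 74 Cd8a and 79 Cd8b1 UMIs. Cd4 per Cd8 UMI in cluster 8 was 0.523 [0.394, 0.690] in WT and 0.354 [0.252, 0.491] in cKO cells, with overlapping intervals.

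**Figure D2:**
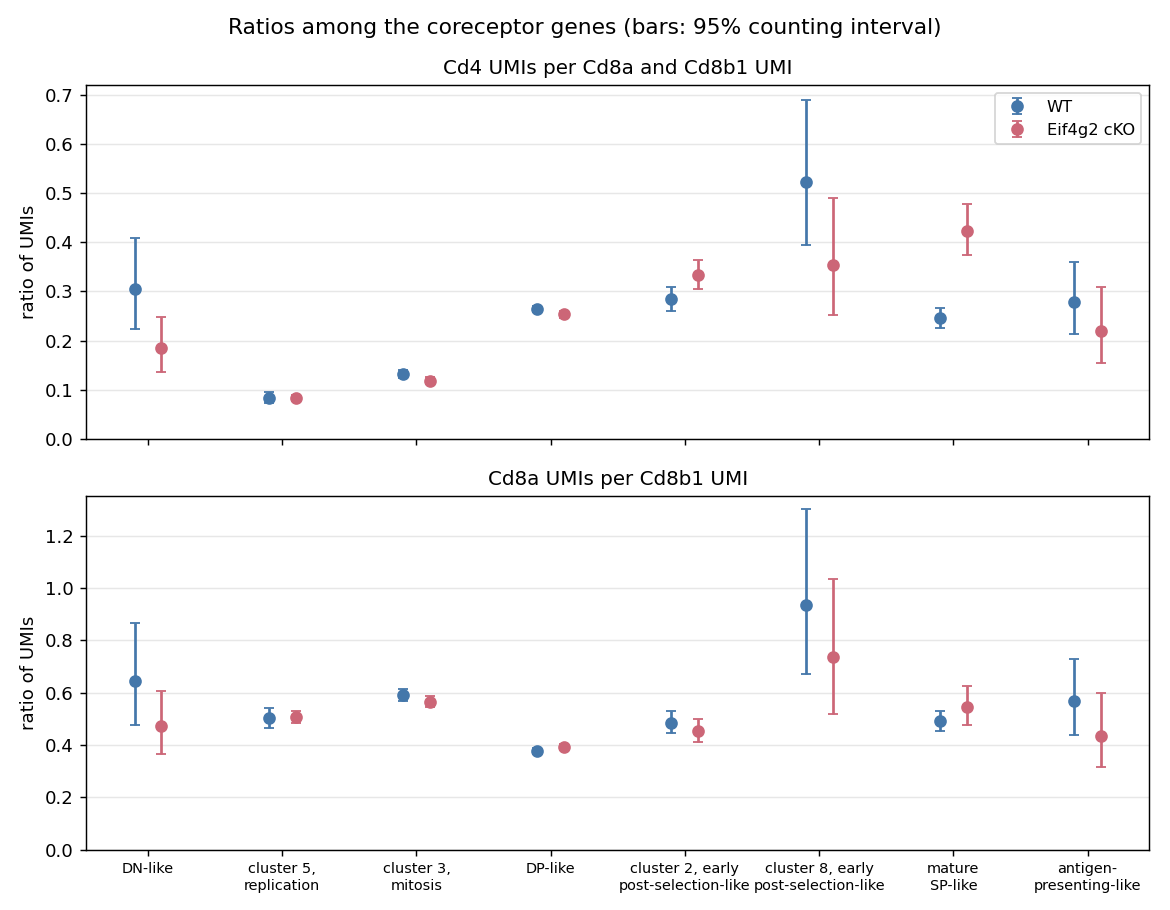
Cd4 UMIs per Cd8 UMI and Cd8a UMIs per Cd8b1 UMI by class, with clusters 2 and 8 of the early post-selection-like class apart, in the WT and the cKO library with exact binomial 95% intervals. The first ratio is 0.245 in WT and 0.423 in cKO mature SP-like cells (0.231 and 0.275 with the class taken from a marker score), and the second is near 1 in cluster 8 of WT (0.937).

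The classes were then compared between genotypes. A gene is called past the fold where its log2 ratio of cKO to WT lies beyond 0.5 with at least 50 UMIs over both libraries. In DP-like cells, 8.46% of 8939 genes were past the fold upward and 29.1% downward, and the median of all genes was -0.18. None of the 3 members was past it. Cd4 was counted in 7028 WT and 5478 cKO UMIs, with a log2 ratio of 0.21 [0.16, 0.26], Cd8a in 7286 and 6098 UMIs with 0.31 [0.26, 0.36], and Cd8b1 in 19323 and 15537 UMIs with 0.25 [0.22, 0.28]. All 3 were slightly higher in the cKO library, above 76.9% (Cd4), 83.0% (Cd8a) and 79.7% (Cd8b1) of the genes of the class, although Cd4 turned to -0.12 with each library clustered alone. That setting put 3265 WT and 937 cKO cells in the class and left 1152 cKO cells unnamed, so it compares a smaller part of the cKO cells. In the main setting the Cd4 difference was uneven among the 3 clusters of the class. In cluster 1 Cd4 stood at 1467 CPM in WT and 1904 in cKO cells, while cluster 0 had 1352 and 1405 CPM and cluster 4 had 996 and 1037 CPM. Cd8a was higher in the cKO library in each of them, with 1386 and 1798 CPM in cluster 0, 1345 and 1548 in cluster 1, and 1320.3 and 1707 in cluster 4.

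In DN-like cells 9.33% of 4030 genes were past the fold upward and 27.6% downward, with a median of -0.12. Cd4 was past it downward, from 59 WT and 55 cKO UMIs with a log2 ratio of -0.52 [-1.07, 0.04], an interval that holds 0. Cd8a had -0.09 [-0.54, 0.36] and turned to 0.03 relative to the median of all genes. Cd8b1 had 0.35 [0.02, 0.69], which turned to -0.41 with classes taken from a marker score and to -0.042 as a mean over cells. WT erythroid-like cells held Cd4 at 44.7, Cd8a at 67.1 and Cd8b1 at 138 [97.1, 190] CPM. The Cd8b1 interval overlaps that of WT DN-like cells, 174 CPM [144, 208]. With so few UMIs the count of 1 of 3 members is not read further.

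In early post-selection-like cells 7.58% of 6793 genes were past the fold upward and 35.2% downward, with a median of -0.24, and no member was past it. Cd4 had 753 WT and 712 cKO UMIs and a log2 ratio of 0.31 [0.16, 0.46], Cd8a 847 and 682 UMIs and 0.08 [-0.07, 0.23], and Cd8b1 1673 and 1446 UMIs and 0.18 [0.08, 0.29]. With each library clustered alone, Cd8a turned to -0.19 and Cd8b1 to -0.067. Clusters 2 and 8 of the class differed for Cd4. In cluster 2 it stood at 454 CPM [421, 490] in WT and 619 [573, 668] in cKO cells. In cluster 8 it was lower in the cKO library, at 240 CPM [191, 299] in WT and 163 [121, 215] in cKO cells, with overlapping intervals.

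In mature SP-like cells 9.8% of 6286 genes were past the fold upward and 35.1% downward, with a median of -0.21. Cd4 was past it upward, from 676 WT and 389 cKO UMIs, with a log2 ratio of 0.72 [0.54, 0.91] that exceeded those of 95.6% of the genes. Neither chain of CD8 followed it. Cd8a had 907 and 325 UMIs and a log2 ratio of 0.04 [-0.15, 0.23], and Cd8b1 had 1849 and 594 UMIs and -0.12 [-0.25, 0.02], which turned to 0.10 relative to the median of all genes. With each library clustered alone, which put 624 WT and 282 cKO cells in the class, the Cd4 ratio was 0.16 and no longer past the fold, and the Cd8a and Cd8b1 ratios were -0.30 and -0.46. Without scaling within libraries (700 and 269 cells) the Cd4 ratio was 0.35, also short of the fold. With the class taken from a marker score without clustering (513 and 304 cells), both CD8 chains were past the fold upward, at 0.54 (Cd8a) and 0.55 (Cd8b1).

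**Figure D3:**
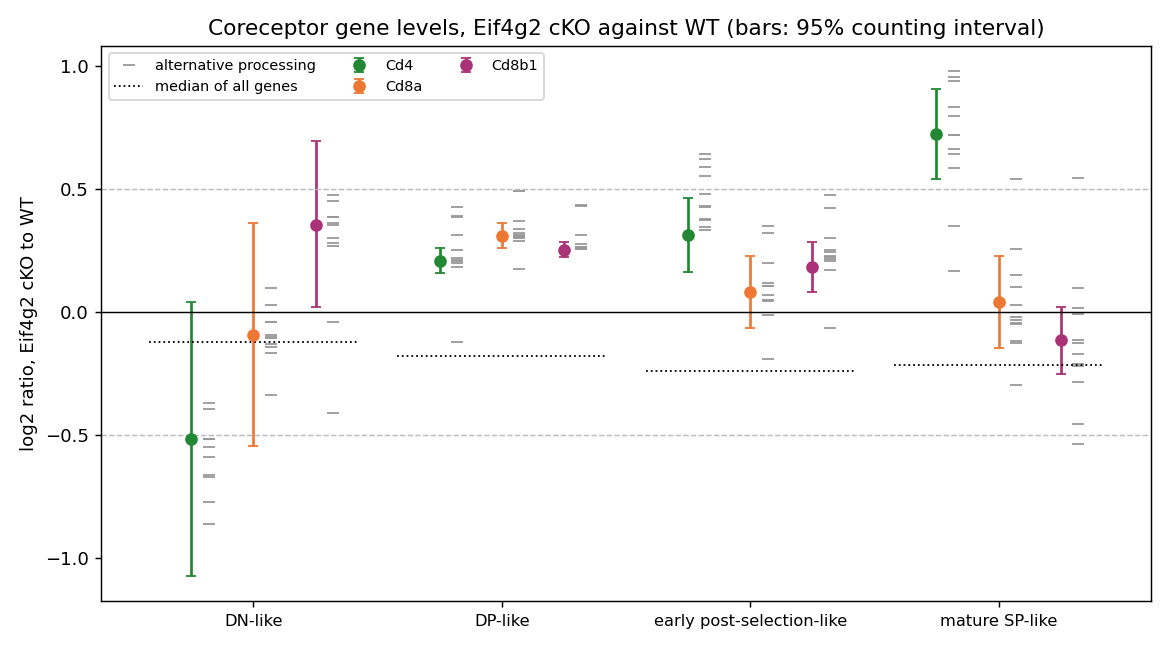
Log2 ratio of cKO to WT levels of Cd4, Cd8a and Cd8b1 in 4 classes with exact 95% counting intervals, the values under other settings as grey dashes, the median of all genes as a dotted line and the fold of 0.5 either way as dashed lines. Cd4 in mature SP-like cells (0.72) and in DN-like cells (-0.52) lies past the fold, and under other settings the mature value runs from 0.16 to 0.98.

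Detection per cell was read at equal depth. Each thinned share rests on a single random draw of UMIs per cell, and the intervals do not cover the spread between draws. With cells thinned to 1000 UMIs, Cd4 was detected among mature SP-like cells in 23.8% [20.4, 27.5] of the WT library and 37.4% [30.6, 44.5] of the cKO library. Cd8a was found in 25.7% and 29.8% and Cd8b1 in 39.6% and 37.4% of them. The shares expected over all draws were 24.4% and 37.0% for Cd4, 26.3% and 28.0% for Cd8a, and 41.2% and 41.0% for Cd8b1. Without thinning, the shares were 49.6% and 61.1% for Cd4, 50.1% and 53.5% for Cd8a, and 62.8% and 67.7% for Cd8b1, at median depths of 3501 UMIs in WT and 3355.5 in cKO cells. At 2000 UMIs the Cd4 shares were 36.7% [32.5, 41.2] and 43.9% [36.2, 51.9], whose intervals overlap, and with each library clustered alone they were 24.4% and 29.4% at 1000 UMIs. The Cd4 share was the higher in the cKO library in each of these, by less than counting error at 2000 UMIs. In WT erythroid-like cells, which should lack all 3 genes, the thinned shares were 4.65% (Cd4), 6.98% (Cd8a) and 2.33% (Cd8b1) of 43 cells, and at all UMIs 23.3%, 25.6% and 41.9% at a median of 6096 UMIs. In DN-like cells the thinned shares of 6.67% and 5.43% for Cd4 and 9.52% and 8.53% for Cd8a lie near those, and Cd8b1 was found in 21 of 105 WT and 17 of 129 cKO cells. Over all draws, the Cd8b1 shares expected at 1000 UMIs were 15.3% and 14.3% in DN-like and 9.72% in WT erythroid-like cells. At 2000 UMIs the DN-like shares were 14.3% and 10.2% for Cd4 and 22.4% and 17.2% for Cd8a, against 5.0% and 12.5% in WT erythroid-like cells, with overlapping intervals. For Cd8b1 they were 23.5% and 25.8% against 22.5%, with overlapping intervals too. With classes taken from a marker score the DN-like shares at 1000 UMIs were 42.3% and 28.4% for Cd4 and 54.4% and 44.0% for Cd8a, so that these values depend on which cells are called DN-like.

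Co-detection separated the classes further. In DP-like cells at 1000 UMIs, 65.7% of WT and 71.7% of cKO cells held UMIs of both coreceptors, 32.3% and 27.0% held Cd8 alone, 1.30% and 0.980% held Cd4 alone, and 0.711% and 0.327% held neither. At this depth a DP-like cell without a Cd4 UMI was thus common, and one without a UMI of Cd8a or Cd8b1 rare. These shares lay close to the product of the single shares, the share with Cd4 multiplied by that with Cd8. That product was 65.7% and 71.7% for both, and 32.3% and 27.0% for Cd8 alone. With Cd8 read from Cd8a alone, Cd4 alone was found in 20.5% of WT and 16.0% of cKO DP-like cells. In early post-selection-like cells both were found in 19.9% [17.2, 22.7] of WT and 25.8% [22.3, 29.6] of cKO cells, Cd4 alone in 10.1% and 8.38%, Cd8 alone in 37.9% and 33.5%, and neither in 32.1% and 32.3%. In mature SP-like cells both were found in 9.78% [7.49, 12.5] of WT and 17.7% [12.6, 23.7] of cKO cells. Cd4 alone was found in 14.1% [11.3, 17.2] and 19.7% [14.4, 25.9], Cd8 alone in 40.7% [36.6, 44.8] and 31.3% [24.9, 38.3], and neither in 35.5% and 31.3%. The cKO mature class therefore held the larger share of cells with both and the smaller share with Cd8 alone, and the first pair of intervals just avoid each other while the second overlap. Both pairs rest on the single draw. The product of the single shares for both was 12.0% in WT and 18.3% in cKO cells. The larger cKO share with both is thus not separate from the higher detection of Cd4. At all UMIs both were found in 30.9% and 45.5%, and at 2000 UMIs in 17.1% and 25.6% of mature cells.

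**Figure D4:**
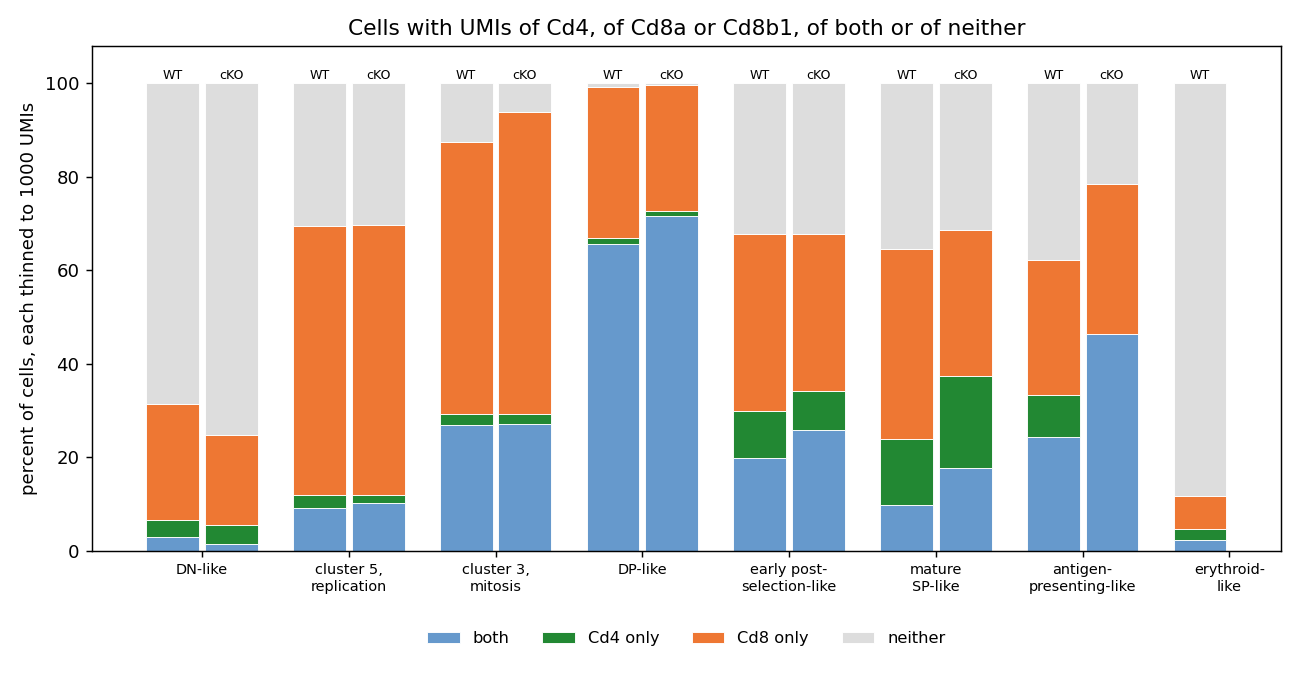
Shares of cells (percent, stacked to 100) with UMIs of Cd4 and Cd8, Cd4 only, Cd8 only and neither at 1000 UMIs per cell, by class and library. DP-like cells are mostly both (65.7% of WT and 71.7% of cKO), and mature SP-like cells are both in 9.78% and 17.7%. The 4 cKO erythroid-like cells have no bar.

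Whether mature cells with one coreceptor held the other less often was read from conditional shares. In WT mature SP-like cells at all UMIs, Cd4 was found in 41.0% [35.9, 46.2] of the 366 cells with a Cd8b1 UMI and in 64.1% [57.3, 70.4] of the 217 cells without one. In cKO cells it was found in 61.2% [52.4, 69.5] of 134 and 60.9% [47.9, 72.9] of 64 cells. At all UMIs Cd4 was thus the rarer in WT cells where Cd8b1 was present, and in the cKO class the shares were close, with intervals that overlap. At 1000 UMIs the WT shares were 19.0% [14.2, 24.7] and 27.0% [22.4, 31.9], whose intervals overlap too, and the cKO shares 39.2% and 36.3%. The 2 chains of CD8 stayed coupled in both, with Cd8b1 found in 82.9% of cells with a Cd8a UMI and 42.6% of cells without one in WT, and in 87.7% and 44.6% in cKO cells. Cells with at least 2 UMIs of both coreceptors, which rest less on single stray molecules, made up 12.2% of WT and 24.2% of cKO mature cells. Cells with at least 2 Cd4 UMIs and no Cd8 made up 9.95% and 12.1%, and those with at least 2 Cd8 UMIs and no Cd4 made up 32.2% and 21.2%. In the early class, 2 UMIs of both were found in 13.0% and 20.7%, and in the DP-like class in 52.0% and 60.7%.

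Mature SP-like cells were next split by genes of the CD4 fate (Zbtb7b and Cd40lg, the ligand by which helper cells act on B cells) and of the CD8 fate (Runx3, Nkg7 and Ctsw of cytotoxic cells, and the integrin Itgae), with no coreceptor gene in either list. UMIs of the CD4 list alone were found in 68 WT and 27 cKO cells (11.7% and 13.6%), of the CD8 list alone in 290 and 68 cells (49.7% and 34.3%), of both in 56 and 7, and of neither in 169 and 96 (29.0% and 48.5%). In WT cells the coreceptors followed the lists. Cd4 stood at 466 CPM in cells of the CD4 list and at 186 CPM in cells of the CD8 list, whereas Cd8b1 stood at 359 and 1157 CPM and Cd8a at 192 and 573 CPM. Cd4 per Cd8 UMI was 0.845 and 0.107. In cKO cells the order was the same, with 696 and 265 CPM for Cd4, 353 and 697 CPM for Cd8b1, 235 and 441 CPM for Cd8a, and 1.18 and 0.233 Cd4 per Cd8 UMI. The CD8 chains lay closer together between the lists than in WT, and Cd4 did not.

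The CD8 chains differed between genotypes in cells of the CD8 list and in cells of neither list. In CD8-list cells the log2 ratio of cKO to WT was -0.73 [-0.94, -0.53] for Cd8b1, -0.38 [-0.64, -0.12] for Cd8a and 0.51 [0.14, 0.87] for Cd4. In cells of neither list it was 0.95 [0.71, 1.2] for Cd8b1, 1.01 [0.65, 1.38] for Cd8a and 0.37 [0.10, 0.64] for Cd4. The CD8 chains thus went opposite ways in these groups of cells, and the values near 0 for the whole class combine them. In CD4-list cells Cd4 had 0.58 [0.13, 1.02] and Cd8b1 -0.02. Where 2 UMIs of a list were asked for, CD8-list cells (218 and 41) had 129 and 181 CPM of Cd4 and 1301 and 712 CPM of Cd8b1. The split rests on detecting the list genes, and the part of their own levels in it was not tested. Among cells with Cd8 UMIs alone, Runx3 stood at 309 CPM in WT and 91.3 CPM in cKO cells, Nkg7 at 464 and 169.5, Itgae at 128 and 26.1, and Ctsw at 267 and 78.3.

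**Figure D5:**
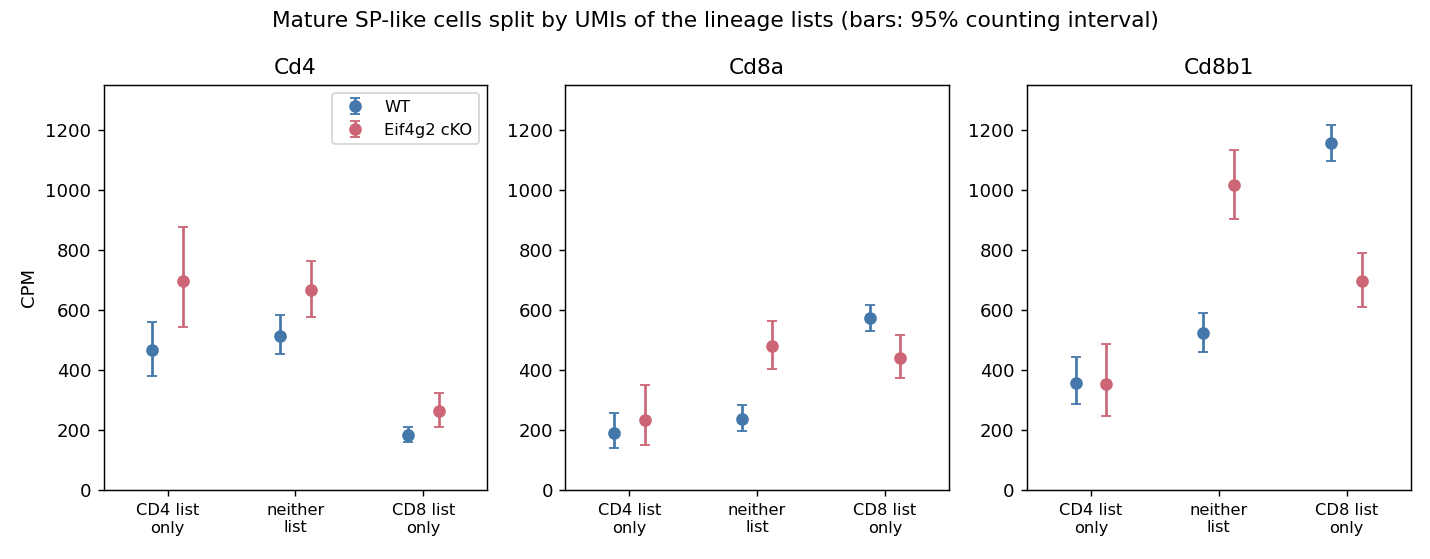
Level of Cd4, Cd8a and Cd8b1 (CPM) in mature SP-like cells with UMIs of the CD4 list only, of neither list and of the CD8 list only, in the WT and the cKO library with exact Poisson 95% intervals. Cd8b1 in cells of the CD8 list is 1157 CPM in WT and 697 CPM in cKO cells, and in cells of neither list 524 and 1015 CPM.

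Markers of other stages also differed in the mature class, and their part in the values above was tested only by leaving out cells with Rag UMIs. The same DP genes, all 5 of which had UMIs in both libraries, summed to 409 CPM in WT and 542 CPM in cKO mature SP-like cells, the cycling list (8 of 8 genes) to 576 and 948 CPM, and the early list (7 of 7) to 1564 and 1190.0 CPM. Cells with a UMI of Rag1 or Rag2, the recombinase genes of DP cells, made up 22.8% of WT (133) and 27.8% of cKO (55) mature cells, and in them Cd4 stood at 394 and 605 CPM and Cd8b1 at 994 and 1186 CPM. Without those cells, a setting added after the data were seen, Cd4 stood at 269 and 442 CPM with a log2 ratio of 0.72, Cd8a at 377 and 348 CPM with -0.12, and Cd8b1 at 766 and 529 CPM with -0.54. The Cd4 ratio was as large without them, Cd8a turned below 0, and Cd8b1 then lay past the fold downward. The share with both coreceptors at 1000 UMIs was 7.56% [5.29, 10.4] in WT and 10.5% [5.99, 16.7] in cKO cells without Rag UMIs. In cells with them it was 17.3% [11.3, 24.8] and 36.4% [23.8, 50.4]. The intervals of the libraries overlap in each case. The antigen-presenting list (11 genes) summed to 90.6 CPM in WT, with all 11 detected, and 24.5 CPM in cKO mature cells, with 7 detected.

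Among 17 regulators of Cd4 and Cd8 transcription, none was past the fold upward in DN-like, DP-like and early cells and 1 in mature cells. Over all genes 9.33%, 8.46%, 7.58% and 9.8% were past it upward in these classes. The upward counts therefore do not set the regulators apart. In DP-like cells 8 of the 16 with enough UMIs were past the fold downward, with a median log2 ratio of -0.53, beside 29.1% of all genes and their median of -0.18. The counts were 10 of 16 downward in DN-like, 11 of 17 in early post-selection-like and 10 of 17 in mature SP-like cells, with medians of -0.61, -0.76 and -0.69. The same shares over all genes were 27.6%, 35.2% and 35.1%, with medians of -0.12, -0.24 and -0.21. Runx1, which with Cbfb takes part in Cd4 silencing in DN cells, stood at 500.3 CPM in WT and 197 CPM in cKO DP-like cells (-1.35) and at 256 and 91.4 CPM in mature cells (-1.49). Bcl11b, which maintains T cell identity, stood at 2085 and 1096 CPM in DP-like cells (-0.93). The regulators of the fates themselves were lower in the mature class, with Runx3 at 202 and 96.6 CPM (-1.07) and Zbtb7b at 49.3 and 28.3 CPM (-0.80). Gata3, which acts upstream of Zbtb7b, was the 1 regulator past the fold upward, at 60.5 and 104 CPM in mature cells (0.79). Tcf7 had -0.08 in DP-like and 0.12 in mature cells, and Cbfb 0.14 in mature cells. The members therefore did not move with the median of their regulators in DP-like cells, where all 3 were above 0.

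Genes with long spans were lower in the cKO library in general. In DP-like cells the median log2 ratio was 0.13 for genes of 5 to 10 kb, the span of Cd8a, near 0 for 10 to 20 kb (Cd8b1), -0.22 for 20 to 50 kb (Cd4) and -0.74 above 100 kb. Relative to the median of their own span, Cd4 stood at 0.43 and Cd8a at 0.18 in DP-like cells, and Cd4 at 0.96 in mature cells. The part of span in the values of the regulators was not tested.

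The partners of the coreceptors in TCR signalling were nearer to the median. Of 9 genes, 3 were past the fold downward in DP-like and early cells, 2 in mature cells and 1 in DN-like cells, and none upward, with medians of -0.07, -0.20, -0.24 and -0.21 in that order. Over all genes 29.1% and 35.2% were past it downward in DP-like and early cells, 35.1% in mature and 27.6% in DN-like cells, so these counts do not set the partners apart. Upward, the shares over all genes were 8.46%, 7.58%, 9.8% and 9.33% in the same order. Lck, the kinase bound by both coreceptors, stood at 2085 CPM in WT and 1982 CPM in cKO DP-like cells (-0.07). Ptprc, the phosphatase that keeps Lck active, had -1.10 in mature cells. The ligands differed by class of MHC. In DP-like cells B2m (1.07), H2-D1 (0.83) and H2-K1 (0.62) of class I were past the fold upward, and H2-Aa (-1.97) and H2-Ab1 (-1.13) of class II downward. Over all genes of these cells, 8.46% were past it upward and 29.1% downward. The class II genes are made by antigen-presenting cells, whose marker list of 11 genes, these included, summed to 68.6 CPM in WT and 25.3 CPM in cKO DP-like cells with 10 detected in each, and its part in this was not tested. In each of the other 3 classes 1 of the 3 ligands with enough UMIs was past the fold upward and none downward, beside 9.33% (DN-like), 7.58% (early) and 9.8% (mature) of all genes upward. In mature cells B2m stood at 1462 and 2090.3 CPM (0.52).

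The genes most like each member were sought over 10 clusters in 2 libraries (20 points that share libraries and cell cycle, given as a description). Cd8a and Cd8b1 were each nearest to the other, with a Pearson's r of 0.987 of log2(CPM + 10) among 8891 genes. Cd4 reached 0.883 with Cd8a and 0.877 with Cd8b1, and was nearer to Klf13 (0.968), Ube2b (0.946), Nsg2 (0.944), Fas (0.935) and Ntrk3 (0.934). Next to Cd8a came Dnajc15 (0.923), Rmnd5a (0.921), Cyb5a (0.919) and Nsg2 (0.913), and next to Cd8b1 Rcbtb2 (0.948), Cyb5a (0.937), Dnajc15 (0.937) and Rmnd5a (0.926). With Spearman's rho, 3, 1 and 2 of the 5 genes were shared with these lists for Cd4, Cd8a and Cd8b1. Klf13, a zinc finger factor, stood at 482 CPM in WT and 605 CPM in cKO DP-like cells but at 246 and 274 CPM in mature cells (0.16), where Cd4 had 0.72. Rmnd5a is also a neighbour, 9.46 kb from Cd8a on the opposite strand, and stood at 723 and 579 CPM in DP-like cells (-0.32), where Cd8a had 0.31. Rmnd5a is longer, running from 71388634 to 71440637, and genes of 50 to 100 kb had a median of -0.49 in DP-like cells.

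The members were counted outside the T lineage as well. In WT erythroid-like cells Cd4 stood at 44.7, Cd8a at 67.1 and Cd8b1 at 138 CPM, and Cd4 per Cd8 UMI was 0.218. The 4 cKO erythroid-like cells held 0 Cd4, 0 Cd8a and 2 Cd8b1 UMIs, where 3 UMIs are 187 CPM. The antigen-presenting-like cells stood far above that. Cd4 stood at 371 CPM in 66 WT and 656 CPM in 28 cKO cells, Cd8a at 482 and 906, and Cd8b1 at 849 and 2077. The 22 WT cells of that class without a UMI of Cd3d, Cd3e or Cd3g had 147 CPM of Cd4, 88.1 of Cd8a and 117 of Cd8b1, and the 44 with one had 481, 675 and 1207. Of the cKO cells of the class, 27 of 28 held a Cd3 UMI. Coreceptor UMIs in this class thus went with those of CD3, and doublets, engulfed thymocytes and free RNA were not separated.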

How the data were processed

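Droplet single-cell RNA-seq libraries of WT and Eif4g2 cKO thymus were analysed from the deposited UMI counts per gene and barcode, which the authors made with dnbc4tools (version 2.1.3 in the series description, 3.0 in the file headers) on mm10 per the submitters' processing notes, with no normalization. No barcode had under 1000 UMIs. The oligo libraries that accompany each thymus were not used here. No column of values was left unmapped (0). Counting strand is not given in the sources used here. The study's filter (at least 50 genes, at most 10% mitochondrial UMIs, genes in at least 3 cells) removed 2 WT cells and 0 Eif4g2 cKO cells. Doublets were not called or removed.

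Counts were scaled to 10000 per cell and logged. The 2000 most variable genes within libraries, without Cd4, Cd8a, Cd8b1, Eif4g2, Y-linked genes and Xist, were scaled within each library and clustered (30 components, 20 neighbours, Leiden resolution 1, seed 1). Clusters were named from marker lists. Some markers used for naming are not reported here, and the sums of DP and mature genes are over the genes named. UMIs were then summed per class and library as CPM. Cells were thinned to 1000 UMIs for shares, in a single random draw per cell. A gene was past the fold at a log2 ratio beyond 0.5 with 50 UMIs over both libraries. With 1 library per genotype no test was made. Members and lists were chosen with earlier results of these data known. The genes named are the members, the fixed lists of regulators, partners, ligands and fate genes, markers, neighbours, and the 5 genes with the highest Pearson's r to each member among genes with 200 UMIs. Scripts were tested on simulated data. Of the gene IDs, 97.9% (21456 of 21926) matched GENCODE M21. The settings varied are listed with their effects after the report. Python 3.11.15, numpy 2.4.6, scipy 1.17.1, pandas 2.3.3, scanpy 1.11.5, anndata 0.12.19, leidenalg 0.10.2 and matplotlib 3.10.9 were used.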

Additional observations from a re-analysis of the deposited data

How the results depend on the processing

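No paired analysis was possible because each genotype has 1 library. Depth limits the DN-like values, which rest on under 100 UMIs for Cd4 in each library, and the cKO mature class of 198 cells. Over 11 or 12 alternatives, the log2 ratio of Cd4 in mature SP-like cells stayed above 0 in 12 of 12 and past 0.5 in 10, and that of Cd4 in DN-like cells below 0 in 11 of 11 and past -0.5 in 9. The mature ratio of Cd8a kept its sign in 5 of 12 and that of Cd8b1 in 9 of 12. Of the values recomputed under an alternative for the ratios and the shares of mature cells, 154 stayed within counting error and 59 moved beyond it. No ratio past the fold in the main setting changed its sign, but calls were lost, as above, and gained. Cd4 in early cells was past the fold in 4 of 11 alternatives. In mature cells Cd8a was past it in 1 and Cd8b1 in 2 of 12. The cause of these moves was not tested.

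Without scaling within libraries, log2 ratios were 0.31 (Cd4), 0.37 (Cd8a) and 0.31 (Cd8b1) in DP-like cells, 0.62 (Cd4) in early cells, and 0.35 (Cd4) and -0.28 (Cd8b1) in mature cells. With each library clustered alone, Cd4 had -0.12 in DP-like cells (3265 WT and 937 cKO cells), Cd8a -0.19 and Cd8b1 -0.067 in early cells, and the mature ratios were 0.16 (Cd4), -0.30 (Cd8a) and -0.46 (Cd8b1), with both coreceptors in 12.4% of cKO mature cells. Centred on the median of all genes, the ratios of Cd4, Cd8a and Cd8b1 were 0.39, 0.49 and 0.43 in DP-like, 0.55, 0.32 and 0.42 in early and 0.94, 0.26 and 0.10 in mature cells. Centred on genes with 200 UMIs they were 0.39, 0.49 and 0.43 in DP-like cells, and 0.30 for Cd8b1 in early cells. Centred on genes of the same span, Cd4 had 0.43, 0.59 and 0.96 in DP-like, early and mature cells and Cd8a 0.18 in DP-like cells. With a marker score in place of clusters, Cd8b1 had -0.41 in DN-like cells, early ratios were 0.64, 0.35 and 0.48 (Cd4, Cd8a, Cd8b1), and mature ratios were 0.54 (Cd8a) and 0.55 (Cd8b1), with both coreceptors in 24.6% of WT and 41.8% of cKO and Cd4 alone in 10.9% and 9.87% of mature cells. As a mean over cells, Cd8b1 had -0.042 in DN-like and Cd4 0.98 in mature cells. Limited to 1000 to 10000 UMIs and 3% mitochondrial UMIs, Cd4 had 0.48 in early cells.

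In mature cells at all UMIs, both coreceptors were found in 30.9% of WT and 45.5% of cKO and Cd4 alone in 18.7% of WT cells. At 2000 UMIs the shares were 17.1% and 25.6%, and 19.6%. With Cd8 read from Cd8a alone, both were found in 5.32% and 11.1%, Cd4 alone in 18.5% and 26.3%, and Cd8 alone in 20.4% and 18.7%. With Cd8b1 alone, Cd8 alone was found in 32.1% and 22.7%. Without cells with a Rag1 or Rag2 UMI, a setting chosen after seeing the data, the mature ratio of Cd8b1 was -0.54 and both coreceptors were found in 10.5% of cKO cells.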

Other observations

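A small class of cycling mature SP-like cells, 38 in WT and 10 in cKO, was kept apart. Cd4 stood there at 187 CPM in WT and 233 CPM in cKO cells, Cd8a at 457 and 192 CPM, and Cd8b1 at 817 and 223 CPM, from 56 and 23, 137 and 19, and 245 and 22 UMIs. The NKT or γδ T-like class, 47 and 14 cells, had Cd4 at 90.1 and 115 CPM, Cd8a at 107 and 272 CPM, and Cd8b1 at 186 and 487 CPM.

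Antigen-presenting-like cells with a UMI of C1qa or C1qb, complement genes of macrophages, numbered 19 in WT and 12 in cKO. They held Cd4 at 655 and 1571 CPM, Cd8a at 873 and 1469 CPM, and Cd8b1 at 1686 and 3446 CPM. The last value rests on 68 UMIs [2676, 4368], beside 4272 CPM in cKO DP-like cells. The WT value lay below the 3584 CPM of WT DP-like cells. The 25 WT cells of the class with a UMI of a B cell marker held Cd8b1 at 255 CPM. Cd8a is also made by a type of dendritic cell, and the 5 WT cells with a UMI of Xcr1 or Clec9a held it at 392 CPM. They also held Cd8b1 at 560 and Cd4 at 112 CPM. The 3 such cKO cells held Cd8a at 194 and Cd8b1 at 485 CPM. Whether this Cd8a came from the dendritic cells themselves was not tested.

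Genomic neighbours of the members were counted as well. Ptms, 25.5 kb from Cd4, stood at 275 CPM in WT and 664 CPM in cKO DP-like cells (log2 ratio 1.27). Gpr162, 0.708 kb from Cd4, stood at 99.4 and 83.6 CPM. Smyd1, 0.554 kb from Cd8b1, stood at 53.1 and 26.1 CPM (-1.02), the opposite direction to Cd8b1 in the same cells. Smyd1 runs from 71213940 to 71322233, and genes above 100 kb had a median of -0.74 in DP-like cells. The part of span in this contrast was not tested.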
